A study of Xenopus laevis with 6 samples.

Results

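The homeologous chromosomes 7L and 7S of the frog Xenopus laevis are described here by their accessible chromatin in gastrula ectoderm. The members are the distinct intervals that the authors listed on these chromosomes, so that several rows with one interval, each a summit, count as 1 region. There were 3440 such regions at stage 10, of 44936 in the whole list, and 4722 at stage 12, of 61049. Chromosome 7L carried 2000 and 2818 of them, and 7S carried 1440 and 1904. The pair was chosen by its measured region density, which was the most balanced of the 9 homeologous pairs, so density is given as a description and supports nothing further.

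Xenopus laevis arose by hybridization of a pair of diploid frog species and still carries both chromosome sets. Each ancestral chromosome is therefore present as a longer (L) and a shorter (S) homeolog, which keep much of their gene order, while the S set is known to have lost more genes and to have been rearranged more often. Open chromatin marks promoters, enhancers and other regulatory DNA that nucleosomes leave free, and ATAC-seq detects it because the transposase Tn5 inserts sequencing adapters there. In the gastrula the ectoderm leaves the pluripotent state of the blastula and takes up epidermal, neural and border fates.

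The study profiled ectodermal explants (animal caps) that were cut from embryos of stage 9 and grown until gastrulation began (stage 10) or ended (stage 12). Each stage had 3 libraries of 2 explants, and the labels name neither a treatment nor a strain. The 3 libraries of a stage share 1 list, so no value could be given per library and no spread between replicates stands behind any difference below. Read totals are not in the lists. Regions were not tied to genes, so the tissue label was not checked against markers, and coordinates are those of the lists, which the submitters' processing notes place on xenLae2.

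The depth behind the lists differed. Read pileup and local background were solved from the deposited fold enrichment and −log10 p of each summit. The most common background, taken as the floor of a list, was 2.204 at stage 10 and 4.70 at stage 12, a ratio of 2.13. At the best summit of a region the median pileup on 7L was 64 at stage 10 and 136 at stage 12, and on 7S it was 66 and 142. Divided by the floor, these were 29.04 and 28.9 on 7L and 29.9 and 30.2 on 7S, so pileup over the floor differed little between 7L and 7S and between stages. At stage 12 the 7L value was nonetheless the lowest of the 18 chromosomes, where the other 16 ran from 29.4 to 34.2. Its median −log10 p of 82.1 was also the lowest, against 84.3 to 93.6 in the others. How far the greater depth of the stage 12 list adds regions to it was not tested. Stage ratios and single-stage shares of the whole chromosomes, and the middle-section difference, are therefore also given with an equal number of regions from each list. That selection equalizes the count and not the depth. Ratios by bin, stretch, part and segment, and single-stage shares by section, are given for the full lists only. So are clusters, gaps, distances, widths, runs, joins and splits.

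Both chromosomes listed more regions at stage 12 than at stage 10, and the count of 7L grew by a larger factor than that of 7S. Chromosome 7L gained 818 regions, a ratio of 1.41, and 7S gained 464, a ratio of 1.32. Among the 18 chromosomes only 4L had a clearly higher ratio than 7L (1.48), while 3L and 9_10L stood beside it (both 1.41). The density of 7L at stage 10 was 15.8 per Mb (95% Poisson interval 15.1 to 16.5), and that of 7S was 16.1 (15.3 to 16.9). At stage 12 the densities were 22.2 (21.4 to 23.1) and 21.2 (20.3 to 22.2). All intervals here cover counting error only and treat regions as independent, although neighbouring regions cluster.

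Density on 7L relative to 7S, as a log2 ratio, was -0.03 at stage 10 (95% interval from -0.13 to 0.07) and 0.06 at stage 12 (-0.02 to 0.15), so both intervals include 0. The sign of either value depended on which regions were counted: without the outermost 5 Mb at each end the stage 10 value was 0.10, and in the upper 50% by score the stage 12 value was -0.0016. With all regions the ratio was higher at stage 12 by 0.09, and the same change in the other 8 pairs ran from -0.04 in pair 1 to 0.10 in pair 4. Pair 7 therefore changed by about as much as several other pairs. The 95% counting interval of its change, from -0.04 to 0.22, includes 0, and in the 7 alternative countings run the change was positive, from 0.03 to 0.10. Densities rest on the span up to the last listed region, which was 127 Mb on 7L and 89.6 Mb on 7S. That is a span ratio of 1.42, the highest of the 9 pairs, against 1.13 to 1.22 in the others. The ratio of region counts, which needs no span, was 1.39 at stage 10 and 1.48 at stage 12. By counts pair 7 was not the most balanced: it stood sixth and seventh from the lowest of the 9 pairs, and pair 5 was the lowest at both stages (1.20 and 1.27). The lengths of the assembled chromosomes were not used here. A gene table of another assembly version places genes beyond the position of the last listed region on both chromosomes, and farther beyond it on 7S than on 7L. Its coordinates belong to a different build and give no density, but spans longer in that way would raise 7L relative to 7S, so the balance of the pair holds for the listed spans only.

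Along both chromosomes the regions were dense toward the ends and sparse in the middle. In full bins of 5 Mb, 7L held between 27 and 145 regions at stage 10 and between 43 and 197 at stage 12, and 7S held 35 to 150 and 55 to 192. The variance between bins was 15.6 times the mean on 7L and 14.7 times on 7S at stage 10, and 15.8 and 13.9 times at stage 12, where independent placement would give about 1. The sparsest bin of 7L at both stages was 45 to 50 Mb, with 27 and 43 regions. The sparsest of 7S was 40 to 45 Mb, with 35 and 55. Among the full bins, the first 5 Mb were the densest of 7S at both stages (150 and 192 regions) and of 7L at stage 12 (134 at stage 10, 197 at stage 12). The partial last bin of 7S, from 85 Mb, was denser per Mb than its first 5 Mb. It had 33.4 against 30 regions per Mb at stage 10 and 39.9 against 38.4 at stage 12. The partial last bin of 7L, from 125 Mb, was sparse instead, with 14.8 regions per Mb at stage 10 and 15.4 at stage 12 (27 and 28 regions). At stage 10 the densest bin of 7L was 105 to 110 Mb, with 145 regions, which became 178.

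**Figure D1:**
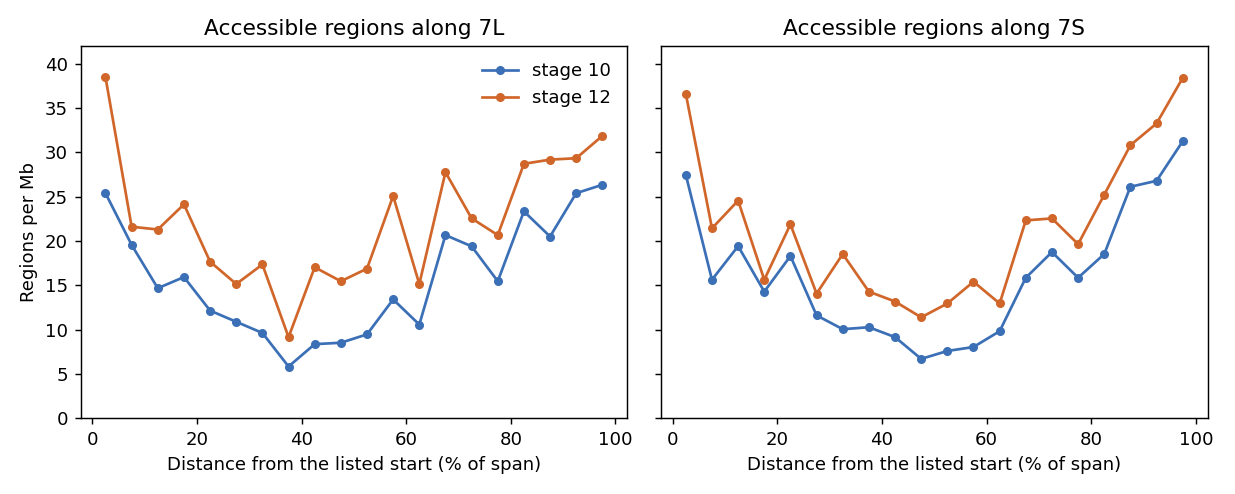
Regions per Mb in 20 equal parts of 7L (left) and 7S (right) at stage 10 (blue) and stage 12 (orange), each point 1 part of the span from its listed start, with no replicate error because each stage is 1 list. Density falls from 25.4 regions per Mb in the first part of 7L to 5.83 in part 8 at stage 10 and climbs again to 26.3 in the last part, and 7S has the same shape.

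The profiles of the homeologs ran alike when each chromosome was divided into 20 equal parts. The correlation of 7L with 7S density over the 20 parts was r = 0.87 (rho = 0.84) at stage 10 and r = 0.85 (rho = 0.86) at stage 12, as a description of parts that share a library. It was lower, at 0.59 at both stages, when 7S was read from its listed end. Over the other pairs the same r ran from -0.10 in pair 3 to 0.94 in pair 6 at stage 10, and pair 7 was the second highest. At stage 12 pair 7 was the highest of the 9. Pair 1 stood close to it at both stages (0.87 and 0.83). The homeologs still differed in places. In part 5, at 22.5% of the span, 7S had 18.3 regions per Mb at stage 10 and 7L had 12.1. In part 12, at 57.5%, 7L had 13.4 and 7S had 8.03.

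Every full 5 Mb bin of both chromosomes held more regions at stage 12, 25 of 25 on 7L and 17 of 17 on 7S, but the size of the gain varied. By regions per Mb, the largest gains on 7L were in the first 5 Mb (63 more regions), at 70 to 75 Mb (62 more, from 78 to 140) and at 50 to 55 Mb (49 more, from 39 to 88). The bin at 55 to 60 Mb gained as many, from 59 to 108. The smallest gain on 7L among full bins was 10 regions, at 15 to 20 Mb (from 61 to 71) and at 75 to 80 Mb (from 42 to 52). On 7S the largest gains were 42 regions in the first 5 Mb, 40 at 5 to 10 Mb (from 60 to 100) and 37 at 55 to 60 Mb (from 69 to 106), and the smallest was 8, at 10 to 15 Mb (from 79 to 87). Additions to a dense end and additions to a sparse middle thus appear side by side, and they differ once each is set against its stage 10 count.

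Relative to stage 10, the gain was highest in the middle of both chromosomes. The highest ratio on 7L was 2.26, at 50 to 55 Mb, and on 7S it was 1.94, also at 50 to 55 Mb. On 7L all 8 bins from 35 to 75 Mb had ratios between 1.59 and 2.26, whereas the highest ratio of a bin outside this stretch was 1.47. That stretch, chosen after the profile was seen, is 31.5% of the span and held 19.0% of the stage 10 regions but 38.1% of the gain. Its count went from 380 to 692, a ratio of 1.82, against 1.31 for the rest of 7L (1620 to 2126). On 7S the 6 bins from 30 to 60 Mb had ratios between 1.53 and 1.94, and the bin at 5 to 10 Mb, outside it, reached 1.67. The 7S stretch went from 278 to 452 regions, a ratio of 1.63 against 1.25 for the rest, and held 37.5% of the gain.

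**Figure D2:**
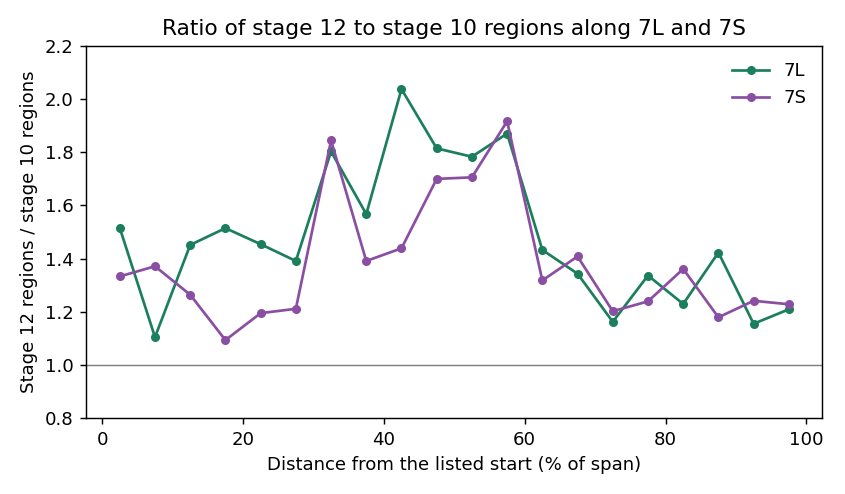
Ratio of stage 12 to stage 10 regions in 20 equal parts of 7L (green) and 7S (purple), plotted against the distance from the listed start as a percentage of the span; the grey line marks a ratio of 1. Both curves have their peaks between 30% and 60% of the span, reaching 2.04 on 7L and 1.92 on 7S, and every part lies above 1. Within that range 7S falls to 1.39 in part 8 and 1.44 in part 9, near the 1.41 of part 14 outside it.

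Each span was then cut into 3 equal sections, called the first, middle and last section. The middle section of 7L went from 427 to 736 regions, a ratio of 1.72, while the first went from 671 to 952 (1.42) and the last from 902 to 1130 (1.25). On 7S the sections went from 507 to 647 (1.28), from 275 to 451 (1.64) and from 658 to 806 (1.22). The middle section was therefore the sparsest at both stages and the one with the highest ratio on both homeologs. At stage 12 it was still the sparsest, with a density of 17.4 per Mb for 7L and 15.1 for 7S, against 21.7 to 27.0 in the other sections.

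The log2 stage ratio of the middle section exceeded that of the outer sections by 0.38 on 7L and by 0.39 on 7S. These were the second highest and the highest of the 18 chromosomes, with 6L next at 0.37 and then 6S at 0.24. The sections were cut after the profile of 7L and 7S was seen, so this order is a description. The other 16 chromosomes ran from -0.24 to 0.37 with a median of -0.01, and 7 of them were above 0. Chromosomes 7L, 7S, 6L and 6S had the smallest part of their stage 10 regions in the middle section, 21.35% on 7L and 19.1% on 7S. The stage 10 count of the middle section is the divisor of its ratio, so the low share and the high ratio are not separate results. With an equal number of regions from each list the differences were 0.37 on 7L and 0.39 on 7S, where 6L reached 0.38. In that selection the middle section of 7L still had 1.26 times as many regions at stage 12 as at stage 10, and its outer sections 0.977 times. On 7S these ratios were 1.20 and 0.917. Among regions at the top score the differences were 0.59 on 7L and 0.74 on 7S, and 6L was next at 0.54. On both chromosomes the top-score share itself rose more in the middle section than in the outer sections. The lists differ in depth, so the top score is not an equal threshold and these values are no separate check.

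**Figure D3:**
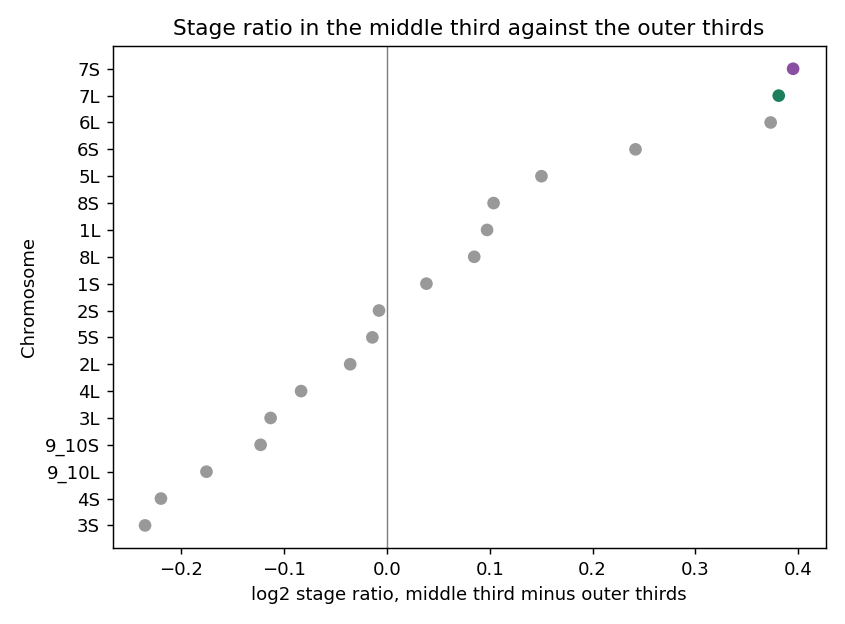
Difference in the log2 ratio of stage 12 to stage 10 regions between the middle section (of 3 equal ones) and the outer sections, 1 point for each of the 18 chromosomes, with 7L in green, 7S in purple and the others in grey; the line marks 0. Chromosomes 7S (0.39) and 7L (0.38) lie at the top, next to 6L (0.37), and the other chromosomes reach down to -0.24.

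Regions of the middle section differed from the others in measures that bear on detection. At stage 10 the median pileup over the floor was 25.0 in the middle section of both chromosomes, against 29.04 and 31.5 in the first and last sections of 7L and 29.5 and 33.1 in those of 7S. The local background over the floor was also lower in the middle, at 2.203 on 7L and 2.40 on 7S, against 2.88 to 3.53 elsewhere. The top score was reached by 45.7% of middle-section regions on 7L and 42.2% on 7S at stage 10, and by 51.1% to 56.1% in the outer sections. At stage 12 these shares were 73.5% and 73.6% in the middle and 73.8% to 74.5% elsewhere. Pileup and background over the floor were still lowest in the middle at stage 12. The median pileup there was 26.2 on 7L, against 29.0 and 31.5 in the first and last sections. On 7S it was 27.9, against 28.9 and 33.0. The median background was 2.32 on 7L, against 2.81 and 3.00, and 2.39 on 7S, against 2.63 and 3.25. The part of these differences in the gain of the middle section was not tested.

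The ratio of 7L was nominally above that of 7S in each of 5 equal segments, numbered from the listed start, but no segment's difference exceeded counting error. The stage ratio was 1.40 on 7L and 1.28 on 7S in segment 1, 1.54 and 1.37 in segment 2, and 1.87 and 1.68 in segment 3. It was 1.30 and 1.29 in segment 4 and 1.25 and 1.24 in segment 5. As log2 differences these were 0.13 (95% counting interval -0.14 to 0.39), 0.17 (-0.17 to 0.51), 0.16 (-0.22 to 0.53), 0.02 (-0.27 to 0.31) and 0.0028 (-0.23 to 0.24). All 5 intervals include 0, as does that of the whole chromosomes, so the larger gain of 7L was not located along its span at this number of regions. Matching by position also assumes that the homeologs are collinear and that both listed spans reach equally far, and in the gene table named above the reach differed between them.

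The gain came from added regions, not from the splitting of listed ones. Chromosome 7L had 1339 regions at stage 12 that no stage 10 region overlapped by 1 bp or more, and 471 at stage 10 that no stage 12 region overlapped. The remaining 1529 regions at stage 10 corresponded to 1479 at stage 12, a net change of -50, and these terms add up to the gain of 818. On 7S there were 870 at stage 12 only, 360 at stage 10 only, and a net change of -46 in shared regions (1080 to 1034). Shared regions became fewer because joining was more frequent than splitting. On 7L, 70 stage 12 regions each covered 2 or more stage 10 regions, and 24 stage 10 regions were each covered by 2 or more at stage 12. On 7S these numbers were 59 and 16. Joining exceeded splitting over all chromosomes too, with counts of 1721 and 502, so this was not particular to the pair. The net change of shared regions there was -1279. One-to-one matches numbered 1364 on 7L and 946 on 7S.

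**Figure D4:**
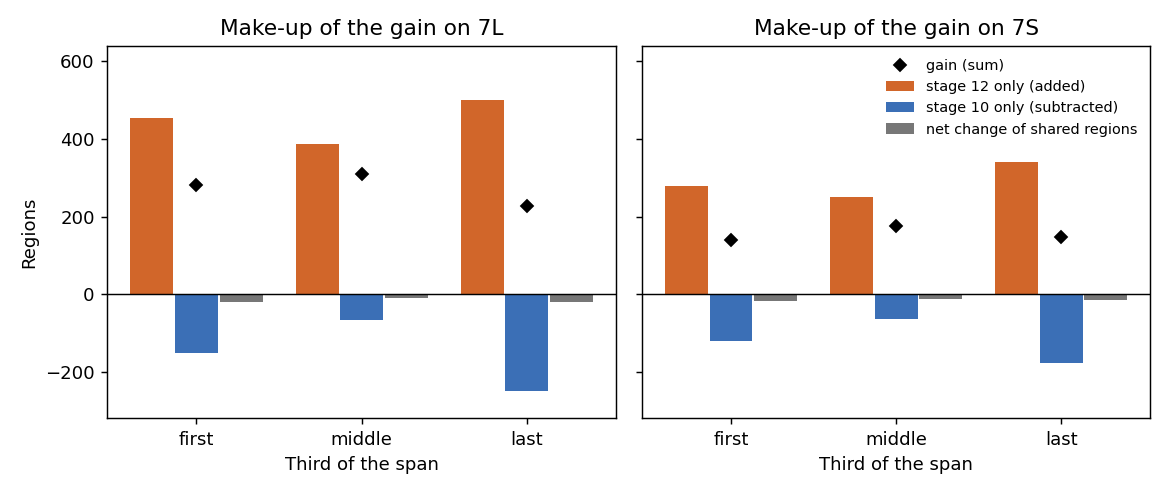
Make-up of the gain in each section of 7L (left) and 7S (right): stage 12 only regions counted upward (orange), stage 10 only regions counted downward (blue), the net change of shared regions (grey) and their sum (black diamonds). The middle section of 7L adds 386 and loses 67 regions, while its last section adds 500 and loses 251, so the sums are 309 and 228.

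Single-stage shares were set against those of all 18 chromosomes. Of stage 10 regions, 23.6% on 7L (95% Wilson interval 21.7% to 25.5%) and 25.0% on 7S (22.8% to 27.3%) had no stage 12 overlap, where the share over all chromosomes was 22.3%. The share of 7S was the highest of the 18, with 5S close to it (24.7%, 22.8% to 26.7%). A lower share than that of 7L was found on 14 chromosomes, and the lowest was 19.95% (3S). Of stage 12 regions, 47.5% on 7L (45.7% to 49.4%) and 45.7% on 7S (43.5% to 47.9%) had no stage 10 overlap, against 45.6% over all chromosomes. Only 4L had a higher stage 12 share than 7L (49.3%), and the lowest was 42.3% (3S). The intervals of 7S at stage 10 and of 7L at stage 12 begin just above the overall share and the other intervals include it, so these shares lie close to the background.

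**Figure D5:**
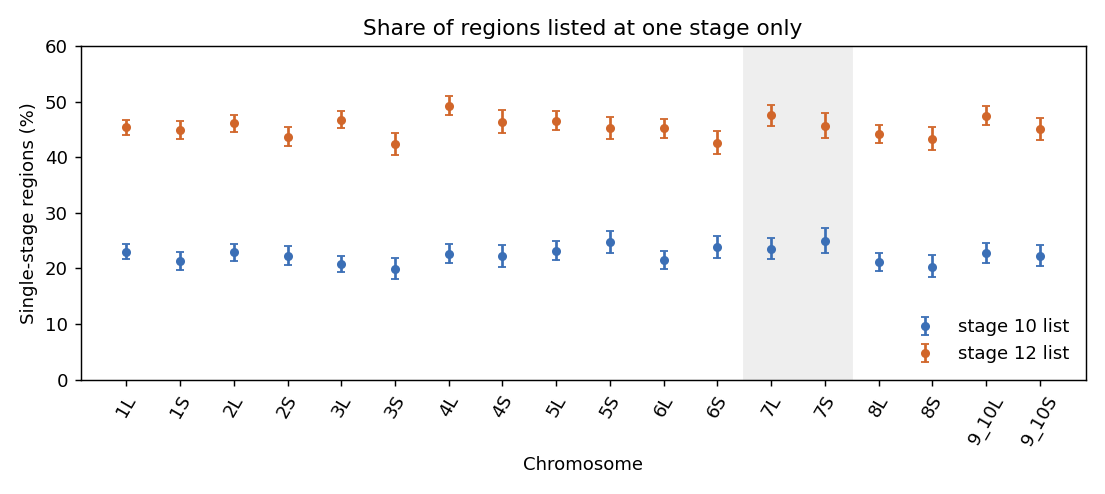
Percentage of regions listed at one stage only on each of the 18 chromosomes, for the stage 10 list (blue) and the stage 12 list (orange), with 95% Wilson intervals; the shaded band marks 7L and 7S. Chromosome 7S has the highest stage 10 share (25.0%), close to 5S (24.7%), and 7L the second highest stage 12 share (47.5%).

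Within the pair the single-stage shares varied with position along the chromosome. At stage 12 the middle section had the highest share of regions without a stage 10 overlap, 52.4% on 7L (95% Wilson interval 48.8% to 56.0%) and 55.7% on 7S (51.0% to 60.2%). The last section had 44.2% on 7L (41.4% to 47.2%) and 42.3% on 7S (38.9% to 45.7%), below the intervals of the middle sections. These intervals treat regions as independent, although neighbouring regions cluster, and are therefore too narrow to establish a difference. The sections were also cut after the profile was seen. The first sections had 47.6% (44.4% to 50.8%) and 43.0% (39.2% to 46.8%). At stage 10 the share in the middle section was nominally lower on 7L than on 7S. There 15.7% of 7L regions (12.5% to 19.4%) and 22.9% of 7S regions (18.3% to 28.2%) were not listed at stage 12, and these intervals overlap slightly. On 7L the middle section was thus low in regions lost and high in regions added. This was not particular to 7L. Of the middle sections of the other chromosomes, that of 6L came closest, with 15.6% at stage 10 only and 51.6% at stage 12 only. On 7S the middle section's share of regions lost was close to that of the first section (23.7%) and the last (26.9%).

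Most late-only regions lay several kb from any early region. Of the 1339 stage 12 only regions of 7L, 194 (14.5%) lay within 1 kb of a stage 10 region, and the median distance was 11.9 kb. On 7S there were 139 of 870 (16.0%), at a median of 10.08 kb. Over the 18 chromosomes the share ran from 13.3% to 17.8% with a median of 15.9%, and the distance from 8.37 to 13.9 kb with a median of 11.2 kb, so the pair lay within the general range. In the middle section the median distance was 17.3 kb on 7L and 13.6 kb on 7S. Gaps of 10 to 100 kb between stage 10 regions received 47.05% of the late regions on 7L and 47.8% on 7S, and gaps of 100 to 500 kb received 37.5% and 37.8%. Per Mb of gap, late-only regions were fewer the longer the gap. On 7L it was 49.4 in gaps under 10 kb, 19.0 in gaps of 10 to 100 kb, 7.89 in gaps of 100 to 500 kb and 3.39 in gaps over 500 kb. On 7S it was 51.2, 17.9, 6.67 and 2.73.

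Long stretches without any region were fewer at stage 12 and took less of the span. Gaps over 500 kb took 26.5 Mb of 7L at stage 10 and 21.5 Mb at stage 12 (37 and 32 gaps), and 14.6 and 10.3 Mb of 7S (21 and 15 gaps). At least 1 late region fell into 32 of the 37 stage 10 gaps on 7L and into 15 of the 21 on 7S. As a share of the span these gaps took 20.9% of 7L and 16.3% of 7S at stage 10, and 17.0% and 11.5% at stage 12. The 18 chromosomes ran from 12.3% to 24.8% (median 19.4%) at stage 10 and from 8.27% to 21.6% (median 14.5%) at stage 12. How far the larger number of listed regions alone breaks up gaps was not tested. The longest gap of 7S was nearly the same interval at both stages, 13141239 to 14336210 at stage 10 and 13143742 to 14336213 at stage 12, with lengths of 1195 and 1192 kb. On 7L the longest gap was 62823239 to 64073736 at stage 10 (1250 kb, in which stage 12 listed 3 regions) and 80234931 to 81469229 at stage 12 (1234 kb, in which stage 10 had 2). Assembly gaps were not known, so a gap may hold sequence to which no read could be placed.

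Clusters were defined as 5 or more regions with no more than 10 kb between neighbours. On 7L their number grew from 56 to 89 and on 7S from 47 to 60. Over all chromosomes it grew from 982 to 1747, a larger factor than on either homeolog. How far the larger number of listed regions alone adds clusters was not tested. They held 19.6% of the 7L regions at stage 10 (95% Wilson interval 17.9% to 21.3%) and 22.6% at stage 12 (21.1% to 24.2%), where the share over all chromosomes was 16.7% and 22.4%. On 7S they held 21.1% (19.1% to 23.3%) and 21.4% (19.6% to 23.3%). At stage 10 both chromosomes were above the overall share, with 3L alone higher than 7S (24.0%), and at stage 12 both were near it. In the middle section 7L had 5 clusters at stage 10 and 19 at stage 12. The middle section of 7S had 3 and 16, a difference as large as the net increase of the whole chromosome. The middle sections of all chromosomes had 244 and 452, a smaller factor than on either homeolog, whose stage 10 counts there were low. The share of middle-section regions in clusters went from 7.96% to 18.6% on 7L and from 5.82% to 21.3% on 7S. In the outer sections of 7S it was lower at stage 12, at 18.7% after 23.3% in the first and 23.7% after 25.8% in the last.

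Clusters were partly shared between stages on the pair, as they were over all chromosomes. Of the stage 10 clusters on 7L, 40 of 56 (71.4%) overlapped a stage 12 cluster, and on 7S 23 of 47 (48.9%) did, where the share over all chromosomes was 66.8%. Seen from stage 12 the shares were 39 of 89 (43.8%) and 23 of 60 (38.3%), against 37.2% overall. Of the stage 10 regions inside clusters, 37.5% on 7S and 27.6% on 7L had no stage 12 overlap, against 26.8% over all chromosomes. Outside clusters these shares were 21.7%, 22.6% and 21.4%. On 7S the share of overlapping clusters at stage 10 was below the overall one and its share of lost regions inside clusters above it, with 47 clusters behind both and no test of the difference.

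The largest clusters lay at different positions on the homeologs and at the 2 stages. On 7L the largest at stage 10 had 16 regions over 56.4 kb (690893 to 747327), of which 4 were not listed at stage 12. At stage 12 it had 18 regions over 57.9 kb (21820688 to 21878583), of which 10 had no stage 10 overlap. On 7S the largest at stage 10 had 13 regions over 44.4 kb (1322227 to 1366671), 8 of them at stage 10 only. The largest of 7S at stage 12 had 22 regions over 80.8 kb (67795564 to 67876352), 11 of them without a stage 10 overlap. Open sequence took 11.1% to 17.4% of the length of these 4 clusters.

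Runs of consecutive late-only regions are given as a description. The longest run on 7L was 17 consecutive stage 12 regions without a stage 10 overlap, over 379 kb (123167067 to 123545641). On 7S the longest had 9, and the first of 2 such runs spanned 222 kb (905940 to 1128314). Runs of 5 or more numbered 53 on 7L and 22 on 7S. Late-only regions were 47.5% of the stage 12 regions on 7L and 45.7% on 7S, so some runs arise from that share alone. The number so expected and the runs of other chromosomes are not given here. Among windows of 1 Mb, the one at 113 to 114 Mb of 7L held the most late-only regions (36, with 27 regions in all at stage 10 and 57 at stage 12), where the median window held 10. On 7S it was the window at 85 to 86 Mb (32, with 51 and 79 regions in all), where the median was 8, and the window at 58 to 59 Mb, in the middle section, had 27. Some windows turned over without growing. At 122 to 123 Mb of 7L, 20 of 38 stage 10 regions were not listed at stage 12, which had 27 regions there.

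Region shape was much the same on the homeologs. On 7L the median width was 499 bp in the early list (quartiles 297 and 749 bp) and 556 bp in the late list (quartiles 333 and 819 bp). On 7S the medians were 496 bp (quartiles 298 and 774 bp) and 568 bp (quartiles 343 and 841 bp). Regions covered 0.874% of the 7L span at stage 10 and 1.34% at stage 12, and 0.914% and 1.32% of the 7S span. The covered length of 7L grew 1.53 times and that of 7S 1.44 times, more than the counts did, and median widths were also larger at stage 12. Regions had 2.84 summits on average on 7L at stage 10 and 2.84 at stage 12, and 2.92 and 2.93 on 7S. The stage 12 mean of 7L was the lowest of the 18 chromosomes, in a range up to 3.08 (3S). Regions with a single summit made up 24.2% of 7L (95% Wilson interval 22.4% to 26.2%) and 23.5% of 7S (21.4% to 25.8%) at stage 10, and 21.01% (19.5% to 22.6%) and 20.1% (18.4% to 22.0%) at stage 12.

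Added regions were narrower and simpler than kept ones. On 7L, stage 12 only regions had a median width of 433 bp, 2.24 summits on average and a fold enrichment of 8.65, whereas shared regions of that list had 689 bp, 3.40 summits and 12.3. On 7S these values were 432 bp, 2.19 summits and 8.59 against 722 bp, 3.55 summits and 12.3. Over all chromosomes they were close to these, at 433 bp, 2.21 summits and 8.43 against 719 bp, 3.54 summits and 12.7. A wider region meets an overlap of 1 bp more easily, and how far that enters the contrast was not tested. Early-only regions were narrower still, with medians of 350 bp on 7L and 312 bp on 7S, where shared early regions had 562 and 597 bp. The median pileup of late-only regions was 20.4 times the floor on 7L and 21.3 times on 7S, and that of shared stage 12 regions 42.8 and 44.7 times. Late-only regions of the middle section were close to those of the outer sections, at 408 and 439 bp on 7L and 414 and 444 bp on 7S.

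Regions matched one to one kept their summits in place. The best summits of the 1364 pairs on 7L lay a median of 8 bp apart, and 75.4% lay within 50 bp. On 7S the median was also 8 bp and 73.5% lay within 50 bp. The stage 12 region was wider in 952 of the 1364 pairs on 7L (69.8%) and in 618 of the 946 on 7S (65.3%). Over all chromosomes 75.2% of matched summits lay within 50 bp and 70.0% of matched regions were wider at stage 12, so 7L was near these shares and 7S somewhat below them. The median ratio of widths was 1.06 on 7L and 1.04 on 7S, and over all chromosomes 1.05. The median width of matched regions went from 574 to 677.5 bp on 7L and from 617 to 708 bp on 7S. Over all chromosomes it went from 593 to 707 bp. These changes were smaller than the width difference between kept and added regions.

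Density by rank is given as a description, because density chose the pair. The chromosome regions of each list were cut by −log10 p into 5 classes of equal size, from class 1 (lowest) to class 5 (highest). At stage 12 the log2 density of 7L over 7S was 0.06 in class 1, 0.22 in class 2 (95% interval 0.03 to 0.41), 0.10 in class 3, -0.01 in class 4 and -0.06 in class 5 (-0.27 to 0.14). The interval of class 5 includes the value of the whole list, 0.06, so class 5 was not shown to differ from it. At stage 10 the classes ran from -0.22 (class 4, -0.44 to 0.005) to 0.15 (class 3) without an order by rank. Of all chromosome regions the pair held 3440 of 40211 at stage 10 and 4722 of 55045 at stage 12. From class 1 to class 5 it held 8.72%, 9.35%, 8.57%, 8.41% and 7.73% at stage 10. At stage 12 it held 8.51%, 8.95%, 9.43%, 8.44% and 7.57%, so class 5 had its lowest share at both stages. The top score of 1000 was reached by 51.5% of 7L regions and 51.7% of 7S regions at stage 10, against 53.8% over all chromosomes, and by 74.0% on both at stage 12, against 74.3%.

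Overlap with the other stage followed rank on both homeologs, as it did over all chromosomes. In class 1 of the stage 12 list, 79.6% of 7L regions and 78.9% of 7S regions had no stage 10 overlap, against 81.3% over all chromosomes, and in class 5 these shares were 7.31% and 5.93%, against 4.79%. At stage 10 the shares without a stage 12 overlap went from 46.6% and 47.4% in class 1, where all chromosomes had 49.1%, to 4.63% and 4.31% in class 5, where they had 2.51%.

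The top-scoring regions listed at one stage alone follow by position, with ties in score broken by −log10 p and folds as the authors gave them. At stage 12 the first on 7L was 99371832 to 99372314, with 2 summits. Its fold enrichment was 23.1, from 556 reads over a background of 23.1, and it lay 7.40 kb from the nearest stage 10 region. The next was 113873100 to 113873666, with a fold of 19.8 (527 reads over 25.6), 17.1 kb from one. It lies in the 1 Mb window with the most late-only regions. On 7S the leading regions were neighbours in the middle section, 58191196 to 58191746 and 58219255 to 58219884, both in the window at 58 to 59 Mb. Their folds were 20.8 and 16.97, their pileups 551 and 507, and the nearest stage 10 region was 16.9 and 20.6 kb away.

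At stage 10 the leading single-stage regions had other features. On 7L the first, 119108057 to 119108153, was 97 bp wide with 1 summit and a fold of 15.4 (162 reads over 9.56), and a stage 12 region lay only 788 bp away. The second, 120956700 to 120957542, had a fold of 6.496, its 282 reads standing over a background of 42.6, which is 19.3 times the floor. On 7S the first, 1378378 to 1379096, had a fold of 10.02 and lay 112 bp from a stage 12 region. The second, 10207340 to 10208075, had 5 summits and a fold of 8.80 and was 6.37 kb from one.

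On 7L the widest region measured 2312 bp in the early and 2388 bp in the late list, and on 7S 2614 and 2633 bp. The widest of 7L at stage 10 (119668449 to 119670760) also had the most summits, 11, and overlapped 2 stage 12 regions. The widest at stage 12 (50675207 to 50677594) had 5 summits, a score of 692 and 43 reads over a background at the floor, and no stage 10 region lay within 79.6 kb. The most summits on 7L at stage 12 were 14, in 7151652 to 7153729. On 7S the widest region also had the most summits at each stage: 67930206 to 67932819 with 13 at stage 10, and 44670259 to 44672891 with 18 at stage 12. The latter piled up 2429 reads over a background of 215, which is 45.8 times the floor, and a copy number of its sequence was not tested.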

How the data were processed

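ATAC-seq libraries of ectodermal explants fall into stage 10 (3) and stage 12 (3) by their titles, and the labels name 1 processed list per stage. Per the submitters' processing notes, base calls were converted with bcl2fastq 2.20 and the build is xenLae2. The aligner, peak caller, read filters and any Tn5 shift are not given in the sources used here, nor is how reads of near-identical L and S sequence were placed. The authors' lists have 10 columns in narrowPeak order and no header. The deposited score of a region is a whole number from 540 to 1000. The deposited fold enrichment is the ratio of pileup to local background, each plus 1. The deposited −log10 p was used for ranking, and the deposited −log10 q was not used.

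Rows with one interval were joined, and a region took the values of its best summit by −log10 p. A read pileup and a local background were recovered from each summit's fold and −log10 p under a Poisson upper tail, and 99.95% and 99.93% of summits were met within 0.01. The solver and interval counts were tested on simulated data. Regions were assigned to bins by their midpoint. Overlap meant at least 1 bp, and starts are 1-based. Computation used Python 3.11.15, numpy 2.4.6, pandas 2.3.3 and scipy 1.17.1, with figures in matplotlib 3.10.9. No hypothesis test was run, since each stage is a single list. Depth per library is unknown. Named regions are, per stage and chromosome, the 2 highest-scoring single-stage regions, the widest, that with most summits, the largest cluster and the longest gap, with the bins of largest and smallest gain and density. The 3 sections, 5 segments, runs, gap classes and 1 Mb windows were added after the profile was seen. The members and lists were chosen with earlier results of these data known. A gene table of assembly version 10.1 was used only to see whether genes lie beyond the last listed region, with none of its coordinates printed since its build differs, and regions at gene starts were not analysed here. Alternatives changed the selection of regions, the overlap, the bins and the cluster limits.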

Additional observations from a re-analysis of the deposited data

How the results depend on the processing

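No paired analysis was possible because a stage has only one list, without values per library, and replicates could not be left out for the same reason. The log2 density of 7L over 7S changed sign at stage 10 without the outermost 5 Mb at each end (0.10), where it was 0.17 at stage 12. It also changed sign at stage 12 in the upper 50% by score (-0.0016), a selection that divides regions tied at the top score. The ratio of stage 12 to stage 10 regions on 7L was 1.04 with an equal number of regions, 2.02 at the top score only and 1.53 in bases covered. On 7S it was 0.972, below 1, with equal numbers, which sets the overall ratio near 1 by construction, and 1.89 and 1.44 in the others. The share at the top score was 53.8% at stage 10 and 74.3% at stage 12 over all chromosomes, so the top-score ratios compare unlike selections.

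The stage 10 only share was 35.8% on both chromosomes with 50% of both regions required. Within 1 kb it was 18.2% on 7L and 18.8% on 7S, with equal numbers 31.6% and 32.1%, and in the upper 50% it was 21.3% and 17.3%. In the upper 50% the share of 7L was thus above that of 7S, the reverse of the main order. The stage 12 only share was 54.4% on 7L and 51.4% on 7S with 50% of both required, 40.6% and 38.4% within 1 kb, and 36.7% and 33.7% with equal numbers. On 7S it was 43.3% in the upper 50%. The difference between middle and outer sections kept its sign on both chromosomes in the 5 alternatives run. It was 0.60 and 0.65 in the upper 50%, 0.59 and 0.74 at the top score, and 0.37 and 0.39 with equal numbers. With the middle 50% of the span it was 0.23 and 0.22, and with the middle 20% it was 0.48 and 0.39. The top-score values rest on the unlike selections named above and are no separate check.

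The share of regions in clusters, for 7L then 7S, was 7.30% and 9.44% at stage 10 and 8.41% and 9.93% at stage 12 with neighbours within 5 kb. Within 20 kb it was 31.05% and 35.6%, then 40.95% and 42.3%. In clusters of 10 or more it was 4.50% and 4.44%, then 6.85% and 4.202%. Read from its listed end, 7S gave r = 0.591 and 0.592. The bin with the largest gain on 7L was not stable: it began at 12.5 Mb in bins of 2.5 Mb and at 50 Mb in bins of 10 Mb or with equal numbers. The bin with the highest ratio, from 50 Mb in the report, began at 52.5 Mb in bins of 2.5 Mb, at 47.5 Mb in bins shifted by 2.5 Mb, and at 50 Mb in bins of 10 Mb or with equal numbers. Each of these overlaps 50 to 55 Mb, but the first 2 only meet at 52.5 Mb. Causes of these shifts were not tested.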
